A study of Mus musculus with 4 samples.

Results

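The semaphorin guidance system was followed as 31 genes: 20 semaphorin ligands of classes 3 to 7, 9 plexin receptors and the co-receptors Nrp1 and Nrp2. They are all features whose symbol names a class 3 to 7 semaphorin, a plexin or a neuropilin, 31 of 32286 features. The rule uses no measured value, but the family was chosen with earlier results of these data known. Nuclei came from frozen hemispheres of the brain at postnatal day 14, taken from mice of the strain C57BL/6, and were counted in 4 libraries of 10x Genomics 3′ v3 chemistry. All 4 libraries carried Slc17a6-Cre, a Cre recombinase driven from the gene of the vesicular glutamate transporter VGLUT2. The 2 libraries labelled WT had the genotype Ago2 wt/wt, and the 2 labelled cKO had Ago2 flox/flox. Ago2 is an Argonaute protein that carries miRNAs to their target mRNAs, and the series concerns Ago2 of glutamatergic neurons and the neurovascular unit. Cre from this driver acts in cells that express VGLUT2 or did so earlier, and which nuclei had recombined was not measured.

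Semaphorins are a family of secreted and membrane-bound proteins that steer growing axons, migrating cells and sprouting vessels. Plexins are their receptors and act through small GTPases on the actin skeleton. Most secreted class 3 semaphorins bind a neuropilin that sits in a complex with an A-type plexin, while Sema3e binds Plxnd1 directly. Neuropilins also bind VEGF in endothelial cells, so the same receptors serve neurons and vessels.

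The libraries held 13107920 and 29317266 UMIs in WT replicates 1 and 2, and 10845009 and 11439733 UMIs in cKO replicates 1 and 2. A filter on mitochondrial UMIs removed 17.8% of the barcodes of WT replicate 1 and 5.64% to 8.78% of the others. In all, 15450 of 17802 barcodes were kept as nuclei. Pairs of libraries shared 3 to 10 barcodes. Nuclei were clustered without the 31 genes, and clusters were named from markers, so that "astrocyte" stands for astrocyte-like nuclei. Among the 12 named classes with enough nuclei to test, cerebellar granule neurons were the most numerous, with 4126 nuclei, although the labels speak of hemispheres. Clusters 16 and 7, which matched no single marker list, were compared by number. Unnamed cluster 3, with 353, 289, 184 and 115 nuclei and a median of 738 UMIs, 0.299 of that of its libraries, was not compared. Ago2 was not lower in the libraries labelled cKO. Its whole-library level was 73.8 and 82.1 CPM in WT and 88.1 and 91.7 CPM in cKO, in the order of the replicates, an order kept throughout. In glutamatergic nuclei it was 72.6 and 78.1 CPM in WT and 109 and 102 CPM in cKO. The reads come from 3′ ends, and which stretch of Ago2 is floxed is not given in the sources used here, so a tag outside that stretch would check nothing. The transgene feature for Cre had 0 UMIs. Slc17a6 itself was at 61.6 and 60.3 CPM in WT and 96.2 and 76.9 CPM in cKO in cluster 16 and at 17.0 and 11.1 CPM in WT and 20.2 and 19.3 CPM in cKO in the glutamatergic class, whose markers are those of cortical excitatory neurons.

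Levels are given in CPM, the usual scaling of a gene's UMIs to the sum of all UMIs of that class in that library. All 31 genes were detected, with 41 UMIs in total for Sema3b and 38327 for Sema6d. Across the 31 genes, total UMIs rose with the genomic span of the gene (Spearman rho 0.83, 31 genes, a description), so levels were compared between classes for each gene and not between genes. Highest and next refer to the 12 named classes that were tested. For 18 of the 31 genes the lowest library value of the class with the highest mean lay above the highest library value of the next class.

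**Figure D1:**
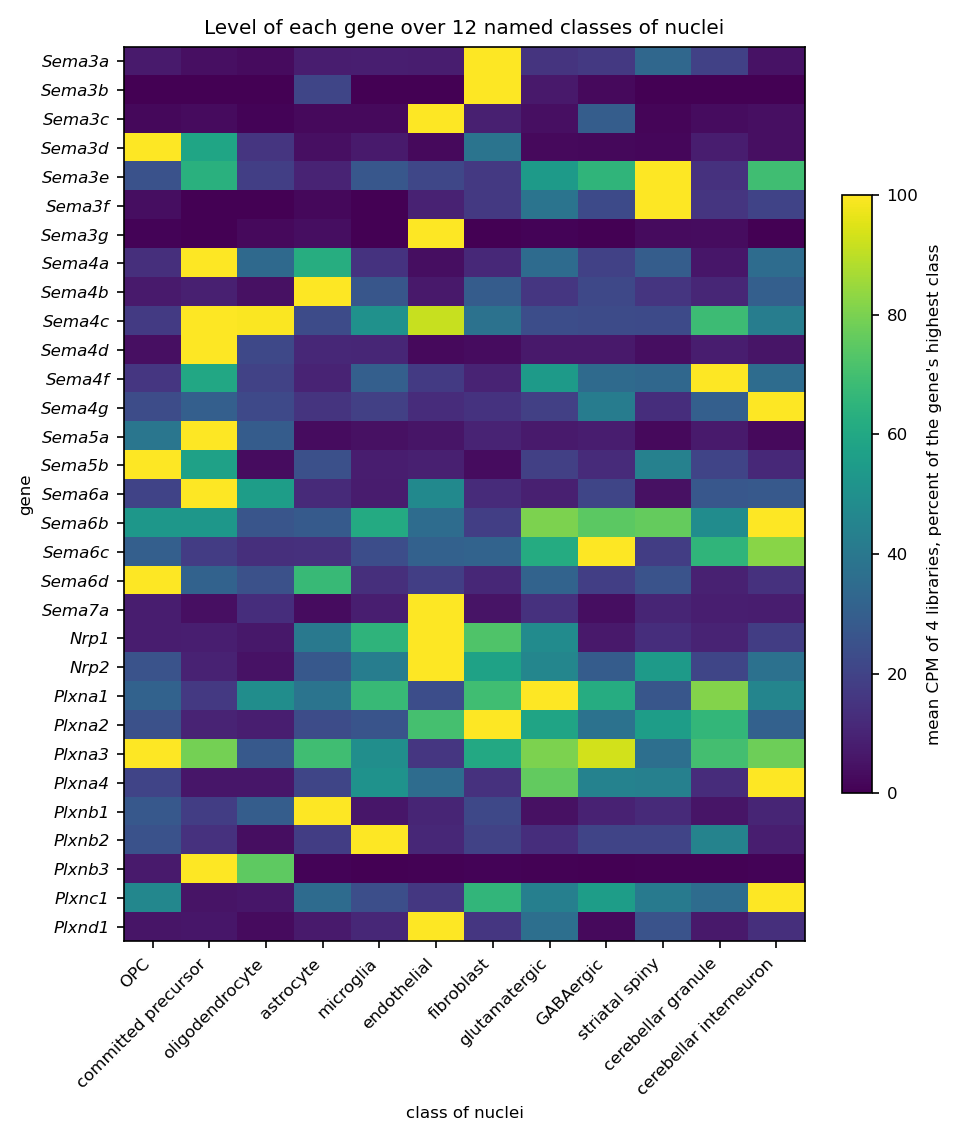
Each row is a gene and each column a class of nuclei; the colour is the mean CPM of 4 libraries as a percent of the gene's highest class. The bright cells spread over many columns: Sema3a peaks in fibroblasts, Sema3c, Sema3g and Sema7a in endothelial nuclei, Sema3d and Sema6d in OPC, and Sema4d, Sema5a and Plxnb3 in committed precursors.

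Among the tested classes the 7 secreted class 3 ligands peaked in fibroblasts, endothelial nuclei, striatal spiny neurons or OPC. Sema3a, a repellent of axons and dendrite cue, was highest in fibroblasts of meninges and vessels, at 468, 338, 410.2 and 525 CPM in the 4 libraries. Striatal spiny neurons came next for Sema3a, at 182, 135, 119 and 146 CPM, below fibroblasts in every library. Sema3c, which guides cortical axons and binds both neuropilins, was highest in endothelial nuclei at 207, 335, 456 and 564 CPM. GABAergic neurons were next for Sema3c, at 116, 93.3, 109.9 and 144 CPM, and glutamatergic neurons held only 24.7, 14.3, 8.09 and 17.2 CPM. Sema3d was highest in oligodendrocyte precursor cells (OPC), at 292, 338, 433 and 447 CPM, followed by committed precursors. Sema3e, the ligand of Plxnd1, was highest in striatal spiny neurons at 103, 112, 180.1 and 175 CPM. Cerebellar interneurons followed for Sema3e at 112, 105, 114 and 64.0 CPM, and the 2 classes overlapped.

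These 4 genes lie on 1 stretch of chromosome 5 (GRCm38): Sema3d from 12.38 Mb, Sema3a from 13.13 Mb, Sema3e from 14.03 Mb and Sema3c from 17.57 Mb. The 4 neighbours thus peaked in 4 different classes. Sema3f, a ligand of Nrp2, was highest in striatal spiny neurons at 12.9, 11.6, 27.5 and 17.5 CPM and next in glutamatergic neurons at 7.17, 5.33, 7.51 and 6.79 CPM. Sema3g was rare, with 56 UMIs in all, and 17 of them came from 174 endothelial nuclei, at 13.4, 28.4, 58.9 and 47.0 CPM. The next class for Sema3g was astrocytes, with a mean of 1.36 CPM. Sema3b, at 41 UMIs in all, reached a mean of 5.64 CPM in fibroblasts and 1.18 CPM in astrocytes, while 12 of its UMIs came from the 62 nuclei of the untested choroid plexus class (25.4 CPM, exact 95% Poisson interval 13.1 to 44.3, counting error only).

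Class 4 ligands are membrane proteins whose main receptors are B-type plexins. Sema4d, the ligand of Plxnb1, was highest in committed oligodendrocyte precursors, at 1589, 1349, 1494 and 1638 CPM. Oligodendrocytes came next for Sema4d at 320.0, 289, 426 and 290.5 CPM, and glutamatergic neurons held 111, 86.9, 102 and 103 CPM. Sema4a was also highest in committed precursors, at 124, 84.9, 37.5 and 107 CPM, and overlapped with astrocytes at 64.6, 36.0, 65.8 and 53.4 CPM. Sema4b was highest in astrocytes at 59.1, 84.3, 109.6 and 119.8 CPM, and the next class, cerebellar interneurons, had a mean of 28.4 CPM. Sema4c differed little between its leading classes, with means of 18.8 CPM in committed precursors and 18.7 CPM in oligodendrocytes. Sema4f was highest in cerebellar granule neurons at 41.3, 43.6, 47.1 and 39.6 CPM, then in committed precursors with a mean of 25.7 CPM. Sema4g was highest in cerebellar interneurons at 62.9, 67.9, 118 and 44.0 CPM, then in GABAergic neurons with a mean of 30.8 CPM.

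Classes 5 to 7 are membrane-bound or membrane-anchored. Sema5a, with its thrombospondin repeats, was highest in committed precursors at 1361, 1802, 1382 and 1762 CPM, and OPC were next at 569.8, 675, 603 and 624 CPM. Sema5b was highest in OPC at 569.8, 394, 385 and 364 CPM and next in committed precursors at 307, 217, 206 and 252 CPM. Sema6a, a ligand of Plxna2 and Plxna4, was highest in committed precursors at 1612, 1381, 2269.8 and 2216 CPM and next in oligodendrocytes at 1129, 1119, 1162 and 752 CPM. The cerebellar granule class joins clusters 5 and 10. Cluster 5 alone held 1284, 1187, 1265 and 1170 CPM of Sema6a, above oligodendrocytes in every library. Sema6d, a ligand of Plxna1, was highest in OPC at 2584, 2529, 2032 and 2273 CPM and next in astrocytes at 1809, 1887, 1284 and 1381 CPM. Sema6b and Sema6c varied less. Sema6b led in cerebellar interneurons with a mean of 28.7 CPM over 23.0 CPM in glutamatergic neurons. Sema6c led in GABAergic neurons with a mean of 22.6 CPM over 18.6 CPM in cerebellar interneurons. Sema7a, a lipid-anchored ligand of Plxnc1, was highest in endothelial nuclei at 140.4, 170.5, 309 and 219 CPM. Glutamatergic neurons were next for Sema7a at 40.8, 28.2, 28.9 and 23.0 CPM, below every endothelial value.

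Both neuropilins were highest in endothelial nuclei among the tested classes. Nrp1, a receptor for Sema3a and VEGF, stood at 428, 579.6, 501 and 384 CPM there and at 305, 307, 276 and 481 CPM in fibroblasts, and these 2 ranges overlapped. Nrp2 stood at 154, 90.9, 279.7 and 117 CPM in endothelial nuclei and at 80.1, 71.4, 108 and 110.0 CPM in fibroblasts, again with overlap. The lowest class for both was oligodendrocytes, with a mean of 30.9 CPM for Nrp1, while Nrp2 there was at 14.4, 6.79, 4.63 and 4.61 CPM. Plxnd1, the receptor of Sema3e, was highest in endothelial nuclei at 80.2, 96.6, 73.6 and 78.3 CPM. Glutamatergic neurons came next for Plxnd1 at 35.9, 30.1, 26.6 and 27.2 CPM, and GABAergic neurons were lowest with a mean of 2.01 CPM.

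A-type plexins, the signalling partners of neuropilins and receptors of class 6 ligands, led in neurons, fibroblasts or OPC. Plxna4 was highest in cerebellar interneurons at 824, 1024, 1003 and 908 CPM and next in glutamatergic neurons at 745, 676, 663 and 765 CPM. Plxna2 was highest in fibroblasts at 703, 688, 481 and 456 CPM, followed by endothelial nuclei at 314, 295, 721 and 313 CPM, and the ranges overlapped. Cluster 5, a part of the cerebellar granule class, alone held 754, 618, 613 and 637 CPM of Plxna2, in the range of fibroblasts or above it. Plxna1 led in glutamatergic neurons with a mean of 19.1 CPM, followed by cerebellar granule neurons with 15.5 CPM. Plxna3 was low throughout, with a mean of 10.5 CPM in OPC and 9.82 CPM in GABAergic neurons.

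The B-type plexins, receptors of class 4 ligands, each led in a different glial class. Plxnb1 was highest in astrocytes at 96.3, 90.1, 84.9 and 76.5 CPM, above oligodendrocytes at 39.5, 16.3, 27.8 and 18.4 CPM in every library. Among the tested classes Plxnb2 was highest in microglia at 52.6, 64.4, 94.6 and 62.5 CPM, and next in cerebellar granule neurons at 25.3, 31.9, 31.8 and 33.3 CPM. Plxnb3 was highest in committed precursors at 340.3, 273, 244 and 287 CPM, overlapping with oligodendrocytes at 259, 202, 129.6 and 267 CPM. Plxnc1, the receptor of Sema7a, was highest in cerebellar interneurons at 87.3, 83.3, 197 and 128 CPM and next in fibroblasts at 59.4, 90.5, 116 and 60.5 CPM.

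The oligodendrocyte lineage held 6 of the 20 ligands at their highest level in committed precursors or OPC with a second class of the same lineage. From OPC to committed precursors to oligodendrocytes, Sema4d went from a mean of 61.8 to 1518 and 331 CPM. Sema5a followed the same course with 618, 1577 and 457 CPM. Sema6a had means of 378, 1869 and 1040.5 CPM. In each of the 4 libraries all 3 genes were higher in committed precursors than in either neighbour. The receptor Plxnb3 had means of 20.2, 286 and 215 CPM. Other ligands went down along the lineage. Sema3d had means of 378, 222 and 59.0 CPM and Sema5b of 428, 246 and 13.6 CPM, and both went down step by step in every library. Sema6d had means of 2355, 743 and 588 CPM, without that step in every library. Classes were ordered here by their markers, not by time.

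**Figure D2:**
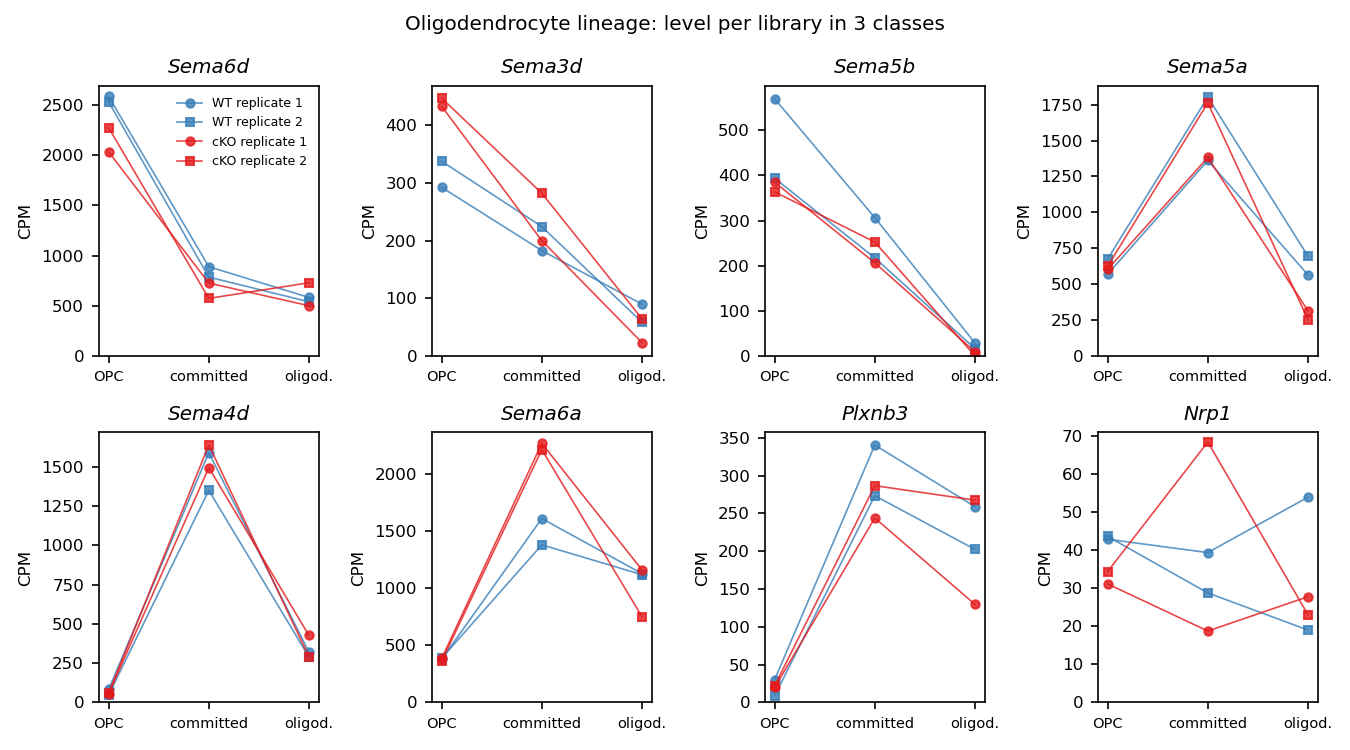
Each panel is a gene, with CPM on the vertical axis (from 0) for OPC, committed precursors and oligodendrocytes; lines join the values of 1 library, blue for WT and red for cKO. Sema4d, Sema5a and Sema6a peak in committed precursors in all 4 libraries, and Sema3d and Sema5b go down in all 4.

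The promoters of 2 of the 6 genes that peaked in committed precursors are shown because SOX factors, which drive oligodendrocyte genes, bind ACAAAG and ACAATG. Each is the 250 bases before the gene's start from RefSeq (GRCm38.p6), with every match in capitals (ACAAAG or its reverse CTTTGT; also ACAATG or its reverse CATTGT). Plxnb3 lies at chrX:73756853-73757102, plus strand and Sema5a at chr15:32244563-32244812, plus strand.
Plxnb3: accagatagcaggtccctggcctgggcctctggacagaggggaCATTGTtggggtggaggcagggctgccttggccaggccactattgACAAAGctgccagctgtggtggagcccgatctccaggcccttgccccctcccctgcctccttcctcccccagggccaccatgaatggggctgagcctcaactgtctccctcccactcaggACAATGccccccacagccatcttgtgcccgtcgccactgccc
Sema5a: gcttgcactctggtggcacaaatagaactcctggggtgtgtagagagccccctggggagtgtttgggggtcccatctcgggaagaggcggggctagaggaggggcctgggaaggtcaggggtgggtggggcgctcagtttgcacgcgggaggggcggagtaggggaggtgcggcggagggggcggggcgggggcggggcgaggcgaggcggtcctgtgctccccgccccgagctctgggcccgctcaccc
Plxnb3 held 3 matches, the most of any window of the genes followed here, and Sema5a held 0. Among other genes that peaked in committed precursors, Sema4d and Sema4a each had a window with 1 match, and the windows of Sema4c had 0. Of 32851 promoter windows in the table, 25.2% held at least 1 match, and 8 of 37 windows of the genes followed here did (21.6%, from the 26 genes with a window in the table). A match is a description of the letters and no evidence of binding.

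In whole libraries no gene of the family passed the test. The edgeR quasi-likelihood test called 0 of 30 tested genes of the family at an adjusted p under 0.05, against 0 of 17010 genes tested (0.0%). DESeq2 also called 0, here and in every comparison that follows. At an unadjusted p under 0.05 there were 4, against 5.91% of all genes. The groups did not overlap for 12 of the 30, against 33.3% of all tested genes. The median log2 change was 0.06 over the family and -0.01 over all genes. In such sums a shift in cell types and a shift in RNA per cell cannot be told apart. Cluster 16, the highest in Slc17a6 among those tested, made up 7.91% and 8.48% of nuclei in WT and 12.45% and 13.7% in cKO. The part of its share in the values below was not tested. Plxnc1 stood at 43.4 and 43.0 CPM in WT and 68.3 and 57.0 CPM in cKO, with both cKO values above both WT values and a log2 change of 0.51 (SE 0.14, adjusted p = 0.471). Sema4b stood at 19.0 and 18.1 CPM in WT and 28.0 and 24.7 CPM in cKO, with a log2 change of 0.49 (SE 0.16, adjusted p = 0.66). Plxnd1 went the other way at 15.5 and 13.9 CPM in WT and 9.05 and 11.8 CPM in cKO, with a log2 change of -0.51 (SE 0.21, adjusted p = 0.804). Nrp1 stood at 144 and 119.8 CPM in WT and 158 and 163 CPM in cKO, with a log2 change of 0.27 (SE 0.11, adjusted p = 0.832). The Nrp1 value was 0.12 with no maximum on mitochondrial UMIs and 0.18 without WT replicate 2. That of Plxnd1 was -0.33 without cKO replicate 1.

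**Figure D3:**
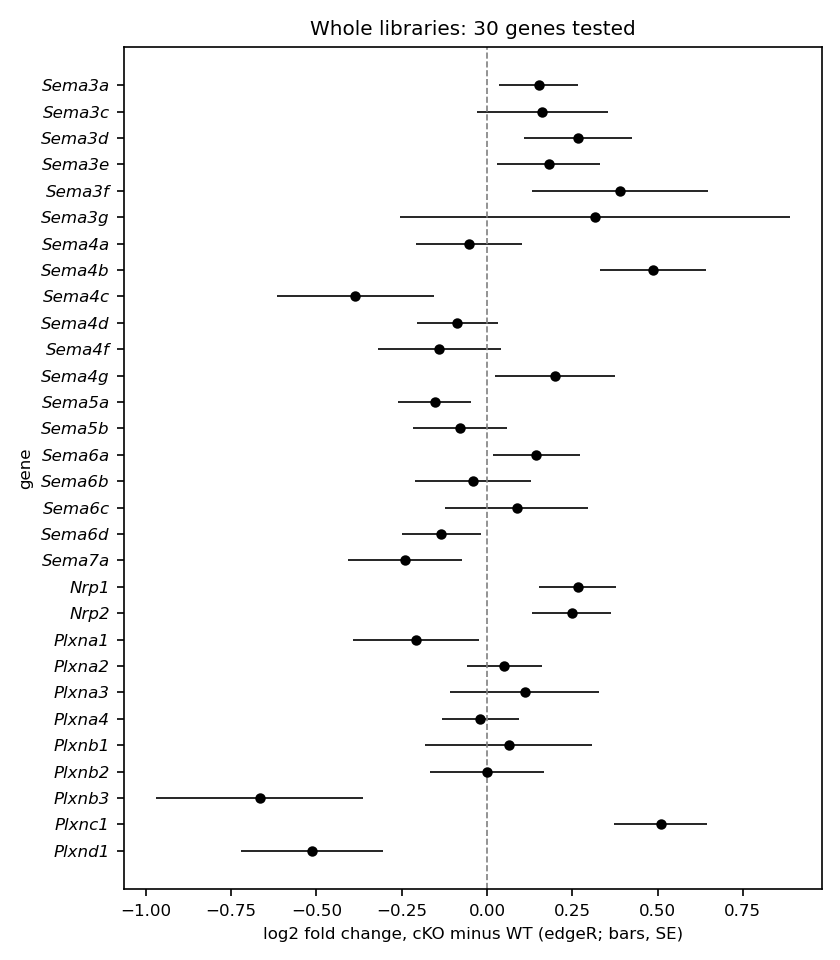
Points are edgeR log2 changes (cKO minus WT) of whole libraries and bars are standard errors, for 30 genes in rows. The bars of 13 genes reach 0 and those of 17 do not. Each bar spans only the standard error to either side, the same count was not made over all genes, and no gene passed the adjusted threshold. Plxnc1 at 0.51 lies farthest to the right and Plxnb3 at -0.67 farthest to the left.

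None of the other genes had an unadjusted p under 0.05 in whole libraries. Among class 3 ligands the log2 changes were 0.15 for Sema3a, 0.16 for Sema3c, 0.27 for Sema3d, 0.18 for Sema3e, 0.39 for Sema3f and 0.32 for Sema3g. Sema3b was too low to test, at 0.863, 0.62, 0.983 and 0.581 CPM. Class 4 gave -0.05 for Sema4a, -0.39 for Sema4c, -0.09 for Sema4d, -0.14 for Sema4f and 0.20 for Sema4g. Classes 5 to 7 gave -0.15 for Sema5a, -0.08 for Sema5b, 0.15 for Sema6a, -0.04 for Sema6b, 0.09 for Sema6c, -0.13 for Sema6d and -0.24 for Sema7a. Nrp2 gave 0.25. Among plexins, Plxna1 gave -0.21, Plxna2 0.05, Plxna3 0.11, Plxna4 -0.02, Plxnb1 0.06 and Plxnb2 0.00. Plxnb3 had a log2 change of -0.67 (SE 0.30, adjusted p = 0.894), at 22.5 and 14.8 CPM in WT and 8.36 and 15.1 CPM in cKO. Its main sources, committed precursors and oligodendrocytes, also differed in share. Committed precursors were 3.25% and 3.04% of nuclei in WT and 1.61% and 2.46% in cKO, and oligodendrocytes were 2.91% and 3.19% in WT and 2.20% and 2.34% in cKO. The part of these shares in the Plxnb3 value was not tested.

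Glutamatergic neurons, named from cortical markers, held 2077 nuclei, and their Slc17a6 level was below that of cluster 16 and of cerebellar granule neurons (means 16.9, 73.7 and 25.8 CPM). The test called 0 of 26 family genes, against 1 of 11202 genes tested (0.00893%), and DESeq2 called 0. At an unadjusted p under 0.05 there were 2, against 5.02% of all genes. In simulated counts at this depth, 61.5% of genes with a log2 change of 1 were called, and so were 11 unchanged genes. The same draw held genes with a log2 change of 2, which ease the adjusted threshold. The share may thus be too high for these data. Sema6a stood at 149 and 120.2 CPM in WT and 221 and 173 CPM in cKO, with a log2 change of 0.51 (SE 0.16, adjusted p = 0.871). Plxnc1 stood at 41.7 and 41.9 CPM in WT and 77.4 and 53.3 CPM in cKO, with a log2 change of 0.58 (SE 0.20, adjusted p = 0.934). In both genes every cKO value lay above every WT value. Genes named for a small p tend to have groups apart, here and in the classes below, so this adds no support. The share of such genes among all genes was counted only in whole libraries. Without cKO replicate 1 the log2 change of Plxnc1 was 0.34. Nrp1 stood at 216 and 188 CPM in WT and 262 and 243 CPM in cKO, with a log2 change of 0.28 (SE 0.14, adjusted p = 0.978), and its groups did not overlap either. Its partner Plxna4 stood at 745 and 676 CPM in WT and 663 and 765 CPM in cKO, with a log2 change of -0.03. Sema7a stood at 40.8 and 28.2 CPM in WT and 28.9 and 23.0 CPM in cKO, where cKO replicate 1 fell between the WT values, with a log2 change of -0.42. Plxnd1 stood at 35.9 and 30.1 CPM in WT and 26.6 and 27.2 CPM in cKO, with a log2 change of -0.32. Sema3c was sparse, with 154 UMIs in WT and 47 in cKO, and had a log2 change of -0.56 (SE 0.39, adjusted p = 0.988). Sema3e and Sema4d differed little, with log2 changes of 0.01 and 0.03.

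In GABAergic neurons 0 of 20 family genes were called, against 0 of 7529 genes tested (0.0%), and 1 had an unadjusted p under 0.05, against 4.87%. That gene was Sema3a, at 61.1 and 57.4 CPM in WT and 95.5 and 77.5 CPM in cKO, with a log2 change of 0.53 (SE 0.23, adjusted p = 0.977). The class joins clusters 8 and 13, and cluster 8 made up 34.4%, 45.5%, 32.3% and 22.8% of its nuclei in the 4 libraries. Sema3a overlapped between groups in cluster 8, at 73.4 and 60.3 CPM in WT and 103 and 43.2 CPM in cKO, and did not in cluster 13, at 53.1 and 53.3 CPM in WT and 91.3 and 92.6 CPM in cKO. The part of the cluster shares in the class value was not tested. The difference between the effect in glutamatergic and in GABAergic neurons was tested with the library as a block. It called 0 of 28 family genes, against 10 of 11957 genes tested (0.0836%), while 5 had an unadjusted p under 0.05, against 6.6%. Sema3a had a difference of -0.68 (SE 0.25, adjusted p = 0.607) on the log2 scale, Sema3c of -0.82, Sema5a of 0.47 and Sema6d of 0.56. Single libraries moved these differences. The Sema6d difference was 0.15 with cKO replicate 2 left out, 1.02 with cKO replicate 1 left out and 0.36 with WT replicate 2 left out. For Sema5a it was 0.17 without WT replicate 2 and 0.31 without cKO replicate 2, and for Sema3c -0.50 without cKO replicate 1 and -1.30 without cKO replicate 2. Sema6d was higher in cluster 8, at 681 and 666 CPM in WT and 606 and 549.5 CPM in cKO, than in cluster 13, at 337 and 304 CPM in WT and 365 and 229 CPM in cKO, and the part of the cluster shares in its value was not tested. Plxnd1 had a fitted difference of 5.23 with an SE of 2.42, which rests on 7 UMIs in WT and 0 in cKO in GABAergic neurons and depends on the prior count, and was 3.07 in DESeq2. The effects on Sema6a and Plxnc1 were not shown to differ between the 2 classes, with differences of 0.15 (SE 0.19, adjusted p = 0.957) for Sema6a and 0.28 (SE 0.26, adjusted p = 0.922) for Plxnc1.

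Striatal spiny neurons, the inhibitory projection neurons of the striatum, gave 0 calls among 16 family genes, against 3 of 6468 genes tested (0.0464%). At an unadjusted p under 0.05 there were 2, against 5.36%. Sema3e, which peaks in this class, stood at 103 and 112 CPM in WT and 180.1 and 175 CPM in cKO, with a log2 change of 0.65 (SE 0.19, adjusted p = 0.745). Sema6d stood at 694 and 691 CPM in WT and 443 and 589 CPM in cKO, with a log2 change of -0.47 (SE 0.17, adjusted p = 0.784). The groups did not overlap in either gene, but both were named for a small p, which selects for this. The Sema6d value was -0.25 without cKO replicate 1 and -0.74 without cKO replicate 2.

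Cerebellar granule neurons gave 0 calls among 26 family genes, against 0 of 10552 genes tested (0.0%), and 3 at an unadjusted p under 0.05, against 6.77%. Plxnc1 stood at 33.3 and 28.8 CPM in WT and 61.9 and 50.2 CPM in cKO, with a log2 change of 0.90 (SE 0.21, adjusted p = 0.311). Its mean was 31.1 ± 3.16 CPM in WT and 56.1 ± 8.26 CPM in cKO (SD, n = 2 each). The class joins clusters 5 and 10, and cluster 5 made up 28.9%, 21.9%, 25.7% and 22.6% of its nuclei in the 4 libraries. Plxnc1 overlapped between groups in cluster 5, at 71.3 and 64.3 CPM in WT and 94.6 and 62.2 CPM in cKO. The part of the cluster shares in the class value was not tested. Sema3d stood at 21.6 and 25.8 CPM in WT and 33.5 and 37.5 CPM in cKO, with a log2 change of 0.57 (SE 0.24, adjusted p = 0.703). Plxnd1 was sparse, with 47 UMIs in WT and 10 in cKO, and had a log2 change of -1.28 (SE 0.51, adjusted p = 0.678). Cerebellar interneurons gave 0 calls among 12 family genes, against 0 of 4507 genes tested (0.0%), and 1 at an unadjusted p under 0.05, against 5.15%. This was again Plxnc1, at 87.3 and 83.3 CPM in WT and 197 and 128 CPM in cKO, with a log2 change of 0.87 (SE 0.29, adjusted p = 0.832). Without cKO replicate 2, Plxnc1 passed the threshold in both cerebellar classes, with log2 changes of 1.03 and 1.15, and Nrp1 passed it in granule neurons with 0.72. In that setting 409 of 11384 genes were called in granule neurons and 45 of 5555 in interneurons. Without cKO replicate 1 the interneuron value of Plxnc1 was 0.54.

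Astrocytes gave 0 calls among 18 family genes, against 10 of 8981 genes tested (0.111%), and 4 at an unadjusted p under 0.05, against 8.07%. Nrp2 stood at 71.1 and 52.6 CPM in WT and 26.0 and 27.4 CPM in cKO, with both cKO values below both WT values and a log2 change of -1.20 (SE 0.29, adjusted p = 0.278). Sema6d, at its next-highest CPM of the named classes here, stood at 1809 and 1887 CPM in WT and 1284 and 1381 CPM in cKO. Its log2 change was -0.49 (SE 0.13, adjusted p = 0.311 in edgeR). Sema4b, at its highest CPM of the named classes here, stood at 59.1 and 84.3 CPM in WT and 109.6 and 119.8 CPM in cKO. Its log2 change was 0.64 (SE 0.22, adjusted p = 0.446 in edgeR). Sema3c was sparse, with 31 UMIs in WT and 7 in cKO, and had a log2 change of -1.45 (SE 0.58, adjusted p = 0.542). With all genes that had at least 1 UMI in the fit, Nrp2 and Sema6d passed the threshold, with adjusted p = 0.0287 and adjusted p = 0.016 in edgeR, as both did without cKO replicate 2. Those settings called 137 of 20257 and 266 of 10193 genes in all. Without WT replicate 2, where 100 of 9351 genes were called, Nrp2 also passed. The Sema4b value was 0.42 without WT replicate 1, and that of Sema3c was -0.91 without cKO replicate 1 and -2.27 without cKO replicate 2.

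The class held clusters 4 and 15, and cluster 4 made up 54.4%, 51.6%, 43.7% and 46.5% of its nuclei in the 4 libraries. Within cluster 4, Nrp2 stood at 103 and 70.9 CPM in WT and 14.4 and 39.8 CPM in cKO, and within cluster 15 at 40.7 and 33.8 CPM in WT and 33.2 and 16.4 CPM in cKO. Sema6d stood at 1746 and 1756 CPM in WT and 1415 and 1412 CPM in cKO in cluster 4 and at 1869 and 2024 CPM in WT and 1203 and 1353 CPM in cKO in cluster 15, so each cluster held both cKO values below both WT values. Sema4b lay higher in both cKO libraries in each cluster, at 62.6 and 80.8 CPM in WT and 97.2 and 132 CPM in cKO for cluster 4 and at 55.7 and 88.0 CPM in WT and 117 and 109 CPM in cKO for cluster 15. The 10 endothelial markers summed to 200.2 and 114 CPM in WT and 67.1 and 104 CPM in cKO in astrocyte nuclei, and no marker of that list was at 0 in all libraries. The 10 oligodendrocyte markers summed to 4857 and 1755 CPM in WT and 492 and 1300.3 CPM in cKO. The part of such RNA in the Nrp2 and Sema3c values was not tested.

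Within the oligodendrocyte lineage the smallest p of the family was that of Sema5a in oligodendrocytes. Sema5a stood at 564 and 695 CPM in WT and 315 and 254 CPM in cKO, a mean of 630.0 ± 92.6 CPM in WT and 284 ± 43.3 CPM in cKO (SD, n = 2 each). Both cKO values lay below both WT values, with a log2 change of -1.21 (SE 0.22, adjusted p = 0.101), from 669 UMIs in WT and 123 in cKO. The class gave 0 calls among 8 family genes, against 7 of 4312 genes tested (0.162%), and this 1 gene at an unadjusted p under 0.05, against 6.33%. Sema5a passed the threshold under 6 of 10 alternatives, with log2 changes from -1.38 to -1.03 and an adjusted p from 0.00115 to 0.299 in all 10. The 6 settings called between 13 and 108 genes in all, against 7 in the main comparison. In committed precursors Sema5a stood at 1361 and 1802 CPM in WT and 1382 and 1762 CPM in cKO, and in OPC at 569.8 and 675 CPM in WT and 603 and 624 CPM in cKO, with overlapping groups in both. The 7 markers of committed precursors summed to 1309 and 1292 CPM in WT and 1120.5 and 1226 CPM in cKO in oligodendrocytes, and the 8 OPC markers to 662 and 413 CPM in WT and 454 and 466 CPM in cKO. The 10 markers of oligodendrocytes themselves summed to 25505 and 23835 CPM in WT and 28003 and 26664 CPM in cKO. The part of maturity in the Sema5a value was not tested.

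**Figure D4:**
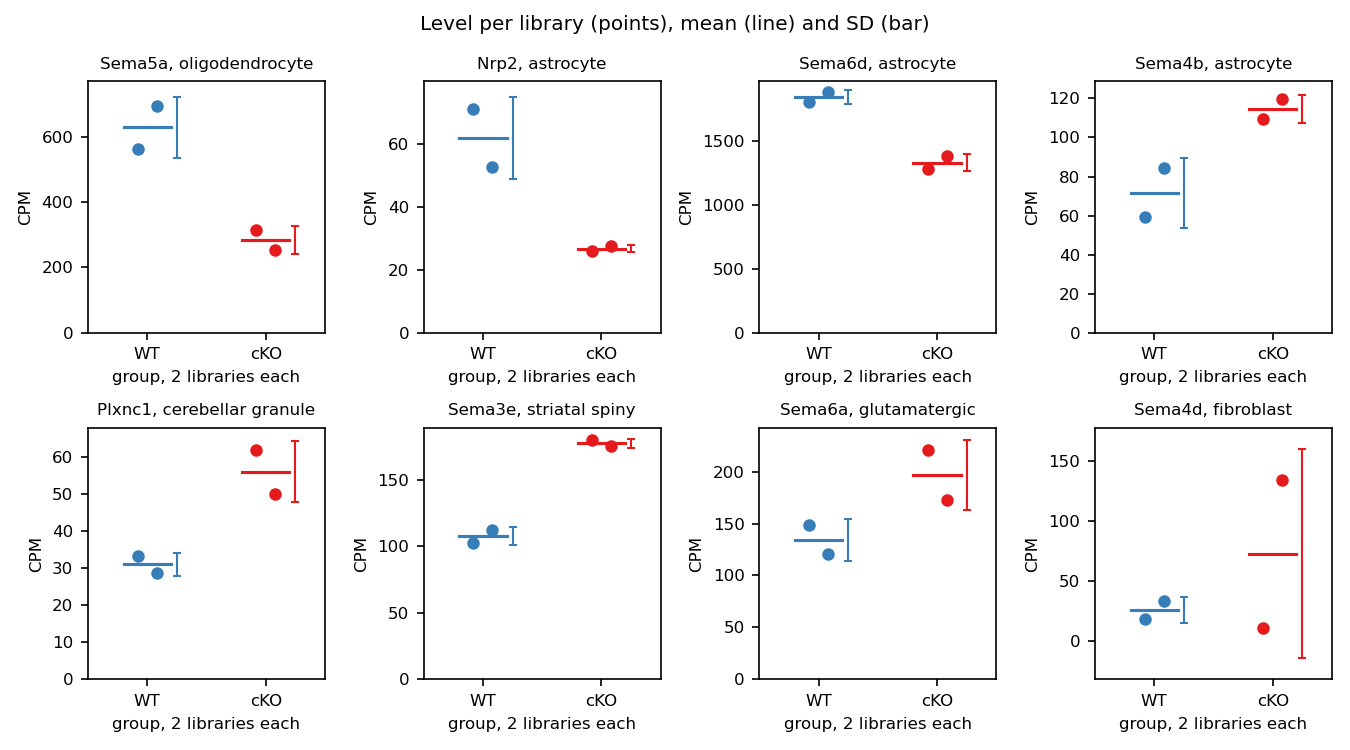
Each panel plots CPM per library (points) in WT (blue) and cKO (red) for 1 gene in 1 class, with the group mean as a line and the SD of the 2 libraries as a bar. The groups are apart for Sema5a in oligodendrocytes, at 564 and 695 CPM in WT and 315 and 254 CPM in cKO, while Sema4d in fibroblasts is high in 1 cKO library alone.

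Committed precursors gave 0 calls among 13 family genes, against 0 of 4790 genes tested (0.0%), and 2 at an unadjusted p under 0.05, against 5.24%. Sema6a stood at 1612 and 1381 CPM in WT and 2269.8 and 2216 CPM in cKO, with a log2 change of 0.56 (SE 0.19, adjusted p = 0.838), or 0.96 with clusters from Leiden resolution 2. Sema3e stood at 70.3 and 69.0 CPM in WT and 106 and 115 CPM in cKO, with a log2 change of 0.66 (SE 0.30, adjusted p = 0.904). OPC gave 0 calls among 14 family genes, against 4 of 5992 genes tested (0.0668%), and 3 at an unadjusted p under 0.05, against 5.42%. Sema3d stood at 292 and 338 CPM in WT and 433 and 447 CPM in cKO, with a log2 change of 0.46 (SE 0.17, adjusted p = 0.695). Plxnc1 stood at 40.3 and 46.1 CPM in WT and 76.4 and 66.3 CPM in cKO, with a log2 change of 0.68 (SE 0.32, adjusted p = 0.875). Sema6d stood at 2584 and 2529 CPM in WT and 2032 and 2273 CPM in cKO, with a log2 change of -0.26 (SE 0.12, adjusted p = 0.915), or -0.15 without cKO replicate 1.

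Endothelial nuclei were few, 47 and 56 in WT and 27 and 44 in cKO, and 0 of 10 family genes were called, against 2 of 3272 genes tested (0.0611%). In simulated counts for this class, 5.81% of genes with a log2 change of 1 and 65% of genes with a log2 change of 2 were called. Only Sema3c of these 10 had an unadjusted p under 0.05, 1 gene against 5.38%. Sema3c stood at 207 and 335 CPM in WT and 456 and 564 CPM in cKO, with a log2 change of 0.89 (SE 0.38, adjusted p = 0.863), or 0.58 without WT replicate 1. Nrp1 stood at 428 and 579.6 CPM in WT and 501 and 384 CPM in cKO, with a log2 change of -0.24, and Nrp2 at 154 and 90.9 CPM in WT and 279.7 and 117 CPM in cKO, with 0.58. Plxnd1 stood at 80.2 and 96.6 CPM in WT and 73.6 and 78.3 CPM in cKO, with a log2 change of -0.24. Plxna2 had a log2 change of 0.68 and rested on 1 cKO library, at 314 and 295 CPM in WT and 721 and 313 CPM in cKO. Sema6a stood at 802 and 1063 CPM in WT and 957 and 736 CPM in cKO, with a log2 change of -0.18. Sema3g was too low to test, with 7 UMIs in WT and 10 in cKO. The 10 endothelial markers themselves summed to 8329 and 11206 CPM in WT and 13574 and 14363 CPM in cKO in this class and the 9 mural markers to 635 and 2000.3 CPM in WT and 73.6 and 579 CPM in cKO, with both sums differing between libraries, and their part in the values was not tested.

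Mural nuclei, the contractile cells and pericytes of the vessel wall, were too few to test, with 5 in cKO replicate 1. Pooled over 76 nuclei, Nrp1 had 69 UMIs, or 375 CPM with an exact 95% Poisson interval of 292 to 475 for counting error only. Sema6a had 28 UMIs, or 152 CPM (101 to 220.1), and Plxna2 15 UMIs, or 81.6 CPM (45.7 to 134.6). Nrp2 had 8 UMIs, Plxnd1 had 3, Sema3c had 2 and Sema3g had 0.

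Microglia gave 0 calls among 7 family genes, against 0 of 3345 genes tested (0.0%), and 2 at an unadjusted p under 0.05, against 5.83%. Plxna4 stood at 601 and 584 CPM in WT and 357 and 368 CPM in cKO, with a log2 change of -0.74 (SE 0.26, adjusted p = 0.67). Plxna2 stood at 90.1 and 117 CPM in WT and 167 and 229 CPM in cKO, with a log2 change of 0.87 (SE 0.35, adjusted p = 0.783), or 0.57 without cKO replicate 2. The groups did not overlap in either gene, which selection by a small p favours, and the directions were opposite. The 6 markers of border macrophages summed to 97.7 and 165 CPM in WT and 284 and 34.7 CPM in cKO in this class, with Pf4 at 0.

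Fibroblasts gave 0 calls among 13 family genes, against 0 of 6487 genes tested (0.0%), and 4 at an unadjusted p under 0.05, against 5.9%. Plxna2, which peaks in this class, stood at 703 and 688 CPM in WT and 481 and 456 CPM in cKO, with a log2 change of -0.54 (SE 0.21, adjusted p = 0.757). Sema5a stood at 121 and 133 CPM in WT and 216 and 168 CPM in cKO, with a log2 change of 0.60 (SE 0.26, adjusted p = 0.806), or 0.35 with doublets kept. Sema6a stood at 171 and 207 CPM in WT and 246 and 297 CPM in cKO, with a log2 change of 0.55 (SE 0.24, adjusted p = 0.806). The class joins clusters 14 and 22, and cluster 22 made up between 14.5% (cKO replicate 1) and 31.7% (cKO replicate 2) of its nuclei. Sema6a was higher in both cKO libraries in cluster 14, at 197 and 232 CPM in WT and 277 and 405 CPM in cKO, and lower in both in cluster 22, at 86.8 and 100.4 CPM in WT and 74.4 and 82.2 CPM in cKO, from 29 UMIs there. Sema4d stood at 18.1 and 33.3 CPM in WT and 11.2 and 135 CPM in cKO, so its log2 change of 1.60 (SE 0.72, adjusted p = 0.832) came from cKO replicate 2 alone. Without that library its log2 change was -1.17, and without cKO replicate 1 it was 2.42 with adjusted p = 6.74e-06 in edgeR, where 68 of 7655 genes were called. With doublets kept it was 0.85. The 8 fibroblast markers summed to 5997 and 5837 CPM in WT and 6026 and 5961 CPM in cKO in the class and the 10 astrocyte markers to as much, 6315 and 5839 CPM in WT and 7096 and 7155 CPM in cKO. The 10 oligodendrocyte markers summed to 3039 and 1238 CPM in WT and 414 and 2255 CPM in cKO, and their part in the Sema4d value was not tested.

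Cluster 16, led by Glra1 and Baiap3 and highest in Slc17a6 among the classes and clusters tested, held 1585 nuclei. It gave 0 calls among 28 family genes, against 0 of 12508 genes tested (0.0%), and 2 at an unadjusted p under 0.05, against 3.96%. Sema6a stood at 203 and 197 CPM in WT and 309.5 and 226 CPM in cKO, with a log2 change of 0.41 (SE 0.15, adjusted p = 1.00). Plxnc1 stood at 53.8 and 50.0 CPM in WT and 69.4 and 64.1 CPM in cKO, with a log2 change of 0.36 (SE 0.16, adjusted p = 1.00). Without cKO replicate 2, Sema6a passed the threshold with adjusted p = 0.0463 in edgeR, among 145 of 13009 genes called, and without cKO replicate 1 its log2 change was 0.19. Cluster 7, with markers of immature and GABAergic neurons, gave 0 calls among 12 family genes, against 1 of 4875 genes tested (0.0205%), and 1 at an unadjusted p under 0.05, against 4.04%. That gene was Plxna4, at 1316 and 844 CPM in WT and 657 and 748 CPM in cKO, with a log2 change of -0.63 (SE 0.23, adjusted p = 0.873), or -0.30 without WT replicate 1.

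**Figure D5:**
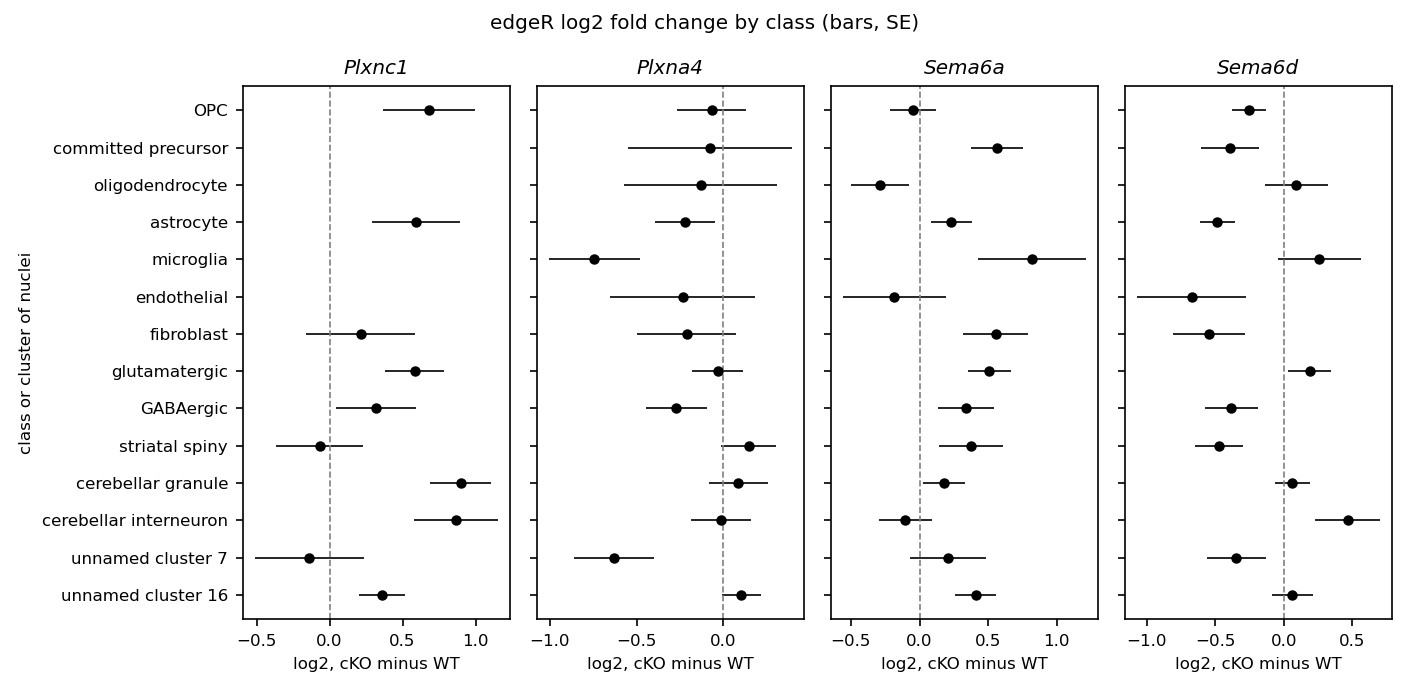
Points are edgeR log2 changes (cKO minus WT) in each class or cluster, with standard errors as bars, for Plxnc1, Plxna4, Sema6a and Sema6d. Plxnc1 lies above 0 in 8 of 10 comparisons and Plxna4 below 0 in 11 of 14. The same count was not made over all genes, and no point passed the adjusted threshold.

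Across classes, some genes had most of their log2 changes in 1 direction. How many of all genes did so was not counted, so this is no trait of the family. Plxnc1 had a positive log2 change in 8 of the 10 classes and clusters that tested it, from -0.14 in cluster 7 to 0.90 in cerebellar granule neurons. Nrp1 was positive in 11 of 13, from -0.41 in OPC to 0.51 in committed precursors. Sema3d was positive in 7 of 8, and Sema6a and Plxna2 were each positive in 10 of 14. Plxna4 was negative in 11 of 14, from -0.74 in microglia to 0.15 in striatal spiny neurons. Sema6d was split, positive in 6 and negative in 8, and Sema5a likewise. The classes share their 4 libraries, so these counts are a description and not repeats of an experiment.

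Of the 46 genes listed for the pathway downstream and beside these receptors, 0 were called by edgeR in any comparison. At an unadjusted p under 0.05 there were 0 of 45 in whole libraries, 5 of 38 in glutamatergic neurons, 7 of 34 in astrocytes and 3 of 37 in cerebellar granule neurons, against 5.91%, 5.02%, 8.07% and 6.77% of all genes. GABAergic neurons, endothelial nuclei, microglia and cluster 7 had 1 each, the difference between glutamatergic and GABAergic effects had 3, and the other 7 classes and clusters had 0. In whole libraries 45 were tested, 17 positive and 28 negative, with a median log2 change of -0.05 beside -0.01 over all genes. The 3 smallest p values belonged to the collapsin response mediators Dpysl3 and Dpysl5 and to Vegfc, none of them under 0.05 unadjusted in edgeR. In glutamatergic neurons 38 were tested, 27 positive, with a median of 0.07 beside -0.01. There the Rac activator Tiam1 had a log2 change of 0.43, Dpysl3 of 0.56 and the receptor Met of 0.67, each with adjusted p = 0.934 in edgeR. In astrocytes 34 were tested, 16 positive, with Farp1 at 0.41, Mras at 0.47 and Tiam1 at 0.63. In endothelial nuclei 23 were tested, 9 positive, with Dpysl2 at -0.81 and Nrcam at -0.77. Vegfc, a growth factor of the VEGF family, had 6 and 1 UMIs in WT and 11 and 28 in cKO there, with a log2 change of 3.08 and adjusted p = 0.23 in edgeR. In oligodendrocytes 17 were tested, 5 positive, with Cdk5 at -0.86, Rap1a at -0.35 and Fyn at 0.30.

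Because Argonaute proteins act through miRNA seeds, the 3′ UTRs of the 31 genes were searched for sites of 7 miRNAs that are abundant in brain. Their abundance was not measured here, and miR-124-3p, not matched among the miRNA sequences used, was not searched. A site is the match to seed bases 2 to 8 followed by A, in the longest annotated 3′ UTR of a gene (GENCODE M21). The 4 miRNAs below had the sites shown here, and capitals mark the seed. Their mature sequences are from RefSeq (GRCm38.p6).
let-7a-5p: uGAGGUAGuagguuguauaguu
miR-9-5p: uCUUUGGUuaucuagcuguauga
miR-132-3p: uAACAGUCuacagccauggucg
miR-30a-5p: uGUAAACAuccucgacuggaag

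The let-7 seed is shared by 11 mature miRNAs in the table. Its site was in 6 of 31 genes of the family (19.4%), against 3.06% of 21000 genes with a 3′ UTR. The median 3′ UTR was 1400 bases in the family and 961 over all genes. The 6 let-7 sites are shown with their flanks from GENCODE M21 transcripts, and capitals mark the 8 bases that pair with the seed and the A.
Plxnc1: ctatttctaacCTACCTCActgaggtggtg
Plxnd1: atcccagaacaCTACCTCAtccacctggca
Nrp2: cttgaggtgtcCTACCTCAgtggaagatag
Sema4c: acaggcaccagCTACCTCAgggacatggca
Sema4f: tggggatatacCTACCTCAgggttgctgca
Sema4g: ccatccctgtcCTACCTCAccagggcactt
The Plxnc1 site begins at base 1904 of a 3′ UTR of 2320 bases, and the Plxnd1 site at base 364 of 929. In glutamatergic neurons 5 of these 6 genes were tested. Their log2 changes were 0.58 for Plxnc1, 0.33 for Sema4g, 0.28 for Nrp2, -0.19 for Sema4f and -0.32 for Plxnd1. Plxnc1 and Plxnd1, which both hold a site, thus went in opposite directions. The median of the 5 was 0.28, beside 0.12 for all 26 tested genes of the family and -0.02 for the 395 tested genes with such a site. In cluster 16 the log2 changes were 0.36 for Plxnc1, 0.25 for Nrp2 and 0.16 for Sema4c. Those of Plxnd1, Sema4f and Sema4g were 0.06, 0.02 and -0.04 there, beside a family median of 0.11.

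Other seeds were nearer their share over all genes. The miR-30 site was in 6 genes (19.4%, against 6.8%), namely Plxna2, Sema6d, Sema3a, Plxna1, Plxnc1 and Sema6b, with a median log2 change of 0.01 in glutamatergic neurons. The miR-9 site was in Nrp2 and Sema3a (6.45%, against 4.13%), and the miR-128 site in Plxna2, Sema6d and Plxnb1 (9.68%, against 5.14%). The miR-132 site was in Sema5a and Sema4g (6.45%, against 2.35%), the miR-138 site in Plxnb2 (3.23%, against 4.27%), and 0 genes held a miR-137 site, against 4.08%. The sites in the 3 genes with the values discussed above are shown, with the paired bases in capitals.
Sema5a, miR-132-3p: gtaaacttgcaGACTGTTAccgatcttaag
Nrp2, miR-9-5p: ggtcaaaatctACCAAAGAacaacaaaaca
Plxnc1, miR-30a-5p: aacagcctcctTGTTTACAgagaatacagg
Whether any of these sites is used was not measured.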

How the data were processed

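For each of the 4 libraries the authors deposited raw UMI counts, 1 value for a gene in a barcode. Cell Ranger 4.0.0, Seurat 3.2.3 and GRCm38 appear in the submitters' processing notes, while the annotation release and the use of intronic reads are not given in the sources used here. Nuclei needed 500 UMIs and a mitochondrial share under 5%, and the barcodes with the highest Scrublet scores were removed, 0.8% per 1000 barcodes. They were clustered in scanpy 1.11.5 with 2000 variable genes (leaving out the 31 genes, Ago2, mitochondrial and sex-linked genes), 30 components, 15 neighbours and Leiden resolution 1. Clusters took a name from 3 or more detected markers whose mean log2 fold was 0.4 or higher. Counts were summed by library for named classes with 20 nuclei in every library, and for clusters 16 and 7, and tested in edgeR 4.0.16 by quasi-likelihood. Genes were filtered with filterByExpr and scaled with TMM. The test was two-sided, and p was adjusted by Benjamini-Hochberg over all genes tested in a comparison, with a threshold of 0.05. The fits were checked on simulated counts, and DESeq2 1.42.0 was an alternative. All genes of the family were named in whole libraries. In a class, the text names those with an unadjusted p under 0.05, each gene's highest and next class, and a fixed set in glutamatergic, endothelial and mural nuclei. An exact two-sided permutation of 2 against 2 libraries cannot go below 0.333. Whether libraries are separate animals is not stated, so p-values measure the spread between libraries. The gene family, lists and tests were chosen with earlier results of these data known.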

Additional observations from a re-analysis of the deposited data

How the results depend on the processing

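Every comparison gave 0 called genes of the family, and 143 of 158 alternative counts were also 0, among them all DESeq2 and RLE scaling fits. Without the filter on low counts, astrocytes gave 2 calls, cerebellar granule neurons 1 and oligodendrocytes 1, among 137, 113 and 44 genes called in all. With doublets kept, oligodendrocytes gave 1. With the replicate number as a replicate block, oligodendrocytes gave 1 (Sema5a, adjusted p = 0.0379 in edgeR) and the other 14 comparisons so fitted 0; the correlation of same-numbered deviations was -0.09 in whole libraries and ran from -0.12 in fibroblasts to 0.12 in endothelial nuclei, and the labels tie the numbers to no shared source. The block moved the genes called in all from 2 to 23 in endothelial nuclei and from 1 to 20 in glutamatergic neurons. Crossed numbers as a block, tried in fibroblasts after seeing a correlation of -0.12, gave 0. Leaving out each library in turn gave 0 to 2 calls in whole libraries (Plxnc1 and Plxnb3 without cKO replicate 2, Plxnb3 at -1.16), astrocytes and cerebellar granule neurons, and 0 to 1 in oligodendrocytes, cerebellar interneurons, fibroblasts and cluster 16; a lone library is then assumed to vary like the other group. Calls over all genes rose too: without cKO replicate 2 they were 478 in whole libraries, 266 in astrocytes and 409 in cerebellar granule neurons, against 0, 10 and 0. Of 38 log2 changes followed, 37 kept their direction in all alternatives; Sema4d in fibroblasts ranged from -1.17 without cKO replicate 2 to 2.42 without cKO replicate 1. Clusters 16 and 7 were added after seeing the data. Simulated log2 changes of 1 were called for 5.81% of genes in endothelial nuclei, 35.8% in astrocytes, 38.9% in oligodendrocytes, 40.6% in whole libraries and 61.5% in glutamatergic neurons, so changes of this size may go undetected. Each simulated set also held genes with a log2 change of 2, which ease the adjusted threshold, so these shares may be too high. Unchanged genes were called as well, 16 of them in whole libraries. The cause of each changed call was not tested.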

Other observations

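Classes too small to compare held some of the family's higher levels. Border macrophages, 72 nuclei in all, held 163 UMIs of Nrp1, or 1236 CPM (exact 95% Poisson interval 1054 to 1441, counting error only), while endothelial nuclei held 384 to 579.6 CPM by library. They also held 25 UMIs of Nrp2, or 189.6 CPM (123 to 279.9), and 13 of Plxnb2, or 98.6 CPM (52.5 to 168.6). Unnamed cluster 20, led by Sntb1 and Col5a2 and made of 100 nuclei, held 228 UMIs of Sema6a, or 856 CPM (749 to 975), 55 of Sema3d, or 207 CPM (156 to 269), and 23 of Plxnb1, or 86.4 CPM (54.8 to 129.6). Ependymal nuclei, 27 in all, held 27 UMIs of Sema3e, or 190.4 CPM (125 to 277). Cycling nuclei, 119 in all, held 494 UMIs of Sema6d, or 1369 CPM (1251 to 1496), and 95 of Sema5b, or 263 CPM (213 to 322). Mural nuclei, 76 in all, held 69 UMIs of Nrp1, or 375 CPM (292 to 475), 28 of Sema6a, 15 of Plxna2, 8 of Nrp2, 3 of Plxnd1, 2 of Sema3c and 0 of Sema3g, with an upper bound of 20.1 CPM in the same interval. Unnamed cluster 3 held 24 UMIs of Plxna1, 32 of Sema6b and 15 of Plxna3, or 23.8, 31.7 and 14.9 CPM.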
